A study of Mus musculus with 4 samples.

Results

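The 10 genes described here encode the constant parts of mouse antibodies and the chain that links antibody units together. They are the heavy chain constant genes *Ighm*, *Ighd*, *Ighg3*, *Ighg1*, *Ighg2b*, *Ighg2c* and *Igha*, the light chain constant genes *Igkc* and *Iglc1*, and the joining chain gene *Jchain*. They were chosen by name, with earlier results of these data known. All 10 were found among the 49315 genes of the count table, and the table holds 396 immunoglobulin genes in all when *Jchain* is counted with them. RNA was sequenced from type 2 innate lymphoid cells (ILC2s) sorted from mouse lungs as lineage-negative cells that carried Thy1.2, ICOS and T1/ST2, and the cells were kept in culture with IL-2 before extraction. The 4 groups were WT mice given PBS (PBS-WT), Hps1-/- mice given PBS (PBS-HPS1), WT mice given bleomycin (BLEO-WT) and Hps1-/- mice given bleomycin (BLEO-HPS1), with 1 library per group. The study's methods give a C57BL/6 background for both genotypes. Hps1-/- mice model Hermansky-Pudlak syndrome, in which lysosome-related organelles form abnormally, and bleomycin injures the lung and is used to induce fibrosis. The study's methods describe both an intraperitoneal and an intratracheal bleomycin course. Lung ILC2s of these genotypes were counted after either course, and the intraperitoneal one is named for ILC2s sorted for coculture with fibroblasts. The methods do not tie a course to these libraries or give the number of mice behind each. All 4 groups share the enrichment, sort and culture steps.

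Antibodies are made by B cells and by plasma cells, the secreting cells that B cells become, and ILC2s carry no rearranged antigen receptor on their surface. A heavy chain begins as IgM or IgD, whose constant genes *Ighm* and *Ighd* are spliced from the same transcript, and class switching later joins the variable region to a downstream IgG, IgE or IgA constant gene by removing the DNA between. Each heavy chain pairs with a kappa or a lambda light chain. Secreted IgM and IgA form polymers through the J chain, and these polymers are what epithelia carry onto mucosal surfaces such as those of the airways. The lineage antibodies of the sort included CD45R/B220, a surface marker of B cells that many plasma cells have lost, beside CD3 of T cells, CD11b, Ly6G and Ly6C of myeloid cells, and Ly76 of the erythroid lineage.

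In the GENCODE M21 annotation of GRCm38, the 7 heavy chain genes lie on the minus strand of chromosome 12. *Ighm* spans 113418558 to 113422730 and *Igha*, at the far end of the cluster, 113254830 to 113260236. Between them, in the direction of transcription, come *Ighd* (113406604 to 113416324), *Ighg3* (113356224 to 113361232), *Ighg1* (113325240 to 113330523), *Ighg2b* (113302965 to 113307933) and *Ighg2c* (113285325 to 113288932). *Igkc* lies on the plus strand of chromosome 6 from 70726435 to 70726966, *Iglc1* on the minus strand of chromosome 16 from 19061618 to 19062071, and *Jchain* on the minus strand of chromosome 5 from 88519809 to 88527891. No exon of another annotated gene overlaps any of the 10.

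The 2 heavy chains that bind the J chain end alike in their secreted form. The last 60 coding bases of the secreted transcripts of *Ighm* (GRCm38 chr12:113420870-113420929, minus strand) and *Igha* (chr12:113258771-113258830, minus strand) are shown 5′ to 3′ because the cysteine next to the last residue, whose codon is in capitals, forms the disulfide bond with the J chain. The 2 tails start with the same bases and both end with this codon before a tyrosine codon.
Ighm tail: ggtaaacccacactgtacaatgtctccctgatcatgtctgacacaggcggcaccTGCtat
Igha tail: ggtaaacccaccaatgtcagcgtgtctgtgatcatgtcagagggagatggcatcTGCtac

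The 4 IgG genes are close copies of each other, which bears on how reads can be assigned to them. Their hinge exons are shown because the hinge is where the subclasses differ most visibly, with every in-frame cysteine codon in capitals. The exons lie at chr12:113360529-113360576 for *Ighg3*, chr12:113329844-113329882 for *Ighg1*, chr12:113307261-113307326 for *Ighg2b* and chr12:113288263-113288325 for *Ighg2c*, all on the minus strand.
Ighg3 hinge: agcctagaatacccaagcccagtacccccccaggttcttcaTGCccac
Ighg1 hinge: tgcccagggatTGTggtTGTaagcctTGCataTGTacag
Ighg2b hinge: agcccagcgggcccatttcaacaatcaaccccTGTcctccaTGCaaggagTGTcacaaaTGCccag
Ighg2c hinge: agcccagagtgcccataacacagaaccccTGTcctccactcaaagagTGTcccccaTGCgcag
The hinge of *Ighg3* has 1 cysteine codon, that of *Ighg2c* 3, and those of *Ighg1* and *Ighg2b* 4 each. Over the whole coding sequence, *Ighg2b* and *Ighg2c* are 85.7% identical, and the other pairs of IgG genes are between 74.1% and 75.9% identical. Of all windows of 50 bases in a gene's exons, 5.49% for *Ighg2c* and 4.15% for *Ighg2b* occur unchanged in another gene, against 1.58% for *Ighg3*, 0.393% for *Ighg1*, 0.288% for *Jchain* and 0 for *Ighm*, *Ighd*, *Igha*, *Igkc* and *Iglc1*. Values of *Ighg2b* and *Ighg2c* are therefore less certain than those of the other members.

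Total counts were between 72513619 and 87638154 reads per library, made from 22405 cells of PBS-WT and 38873 of PBS-HPS1, and from 84166 of BLEO-WT and 128647 of BLEO-HPS1. Levels are CPM, counts per a common library size, scaled with TMM factors, and ratios are differences of log2 CPM after adding a prior count of 2, so that a log2 ratio of 1 is a 2-fold difference. The 14840 genes with at least 1 CPM in at least 1 library were compared, and 3 reads, taken as the smallest count to be read as a level, corresponded to between 0.0303 and 0.0475 CPM. Intervals are exact Clopper-Pearson intervals at 95% and cover counting error only, since a group of 1 library shows no spread between mice and allows no test of a condition. *Hps1* itself had a CPM of 38.3 in PBS-WT and 48.4 in BLEO-WT against 16.6 in PBS-HPS1 and 21.3 in BLEO-HPS1, the lower levels being those of the Hps1-/- libraries. The 14 measured ILC2 genes had a summed CPM between 1637 and 1880, but single genes went different ways. *Rora*, a transcription factor that ILC2s need, had 63.9 and 78.4 CPM in PBS-WT and PBS-HPS1, then 25.2 and 13.2 in BLEO-WT and BLEO-HPS1, and *Il7r* (180, 205, 149 and 76.9) and *Icos* (79.9, 77.5, 51.4 and 32.1) were likewise lowest in BLEO-HPS1. *Arg1*, which macrophages also express, was higher in both bleomycin libraries (8.34, 4.59, 387 and 257), and *Thy1*, shared with T cells, highest in BLEO-HPS1 (306, 206, 224 and 551). Of the 14 genes, 5 were lowest in BLEO-HPS1 and 4 highest there. The latter were *Thy1*, *Tcf7*, *Klrg1* (13.2, 10.5, 17.7 and 35.6) and *Nmur1* (1.39, 0.828, 1.26 and 2.82). *Ptprc*, the gene of the leukocyte antigen CD45, had 1430, 1151, 529 and 333 CPM, so the flat sum does not show a constant content of ILC2s.

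Reads of antibody constant genes were present in every library. Together the 10 genes took 0.109% of all reads in PBS-WT and 0.0836% in PBS-HPS1, and 0.0346% in BLEO-WT and 0.132% in BLEO-HPS1, or a summed CPM of 1017, 656, 387 and 1619 in that order. The bleomycin libraries of the 2 genotypes were thus the extremes, BLEO-WT the lowest and BLEO-HPS1 the highest. In bulk RNA, fewer cells of a type and less RNA per cell cannot be told apart. The 10 genes made up between 72.0% and 77.3% of all immunoglobulin and *Jchain* reads, so most antibody reads in each library were constant region reads.

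**Figure D1:**
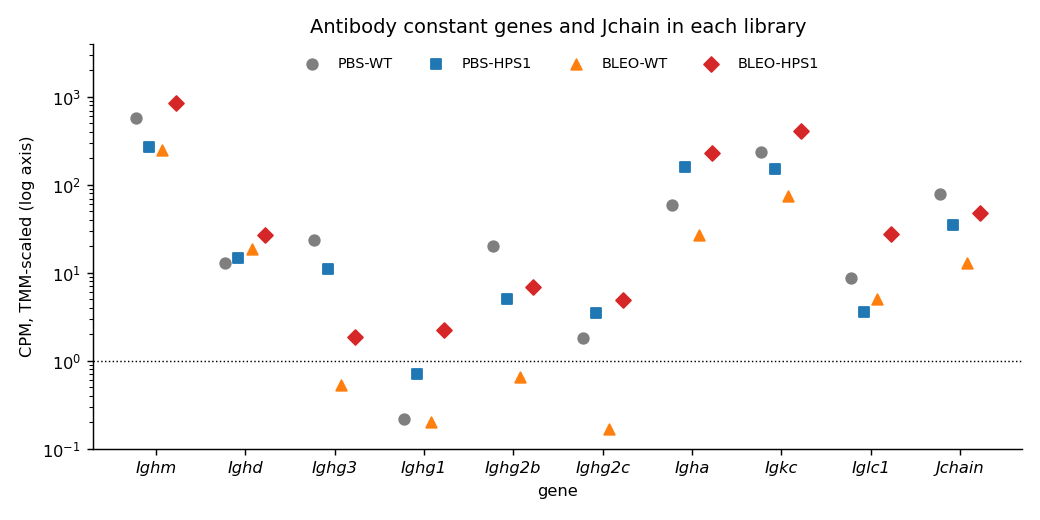
CPM of each of the 10 genes (log axis) in the 4 libraries, 1 point per library, with the dotted line at 1 CPM. BLEO-WT is the lowest point for 8 of the 10 genes and BLEO-HPS1 the highest for 7 (9 and 5 if libraries are scaled by total counts alone). The lowest and highest library was not counted over all genes, so these counts have no background.

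*Ighm*, the heavy chain of IgM, had the highest level per kilobase of exon of the 7 heavy chain genes in each library, between 131 and 454 CPM per kb. *Ighm* had 44692 reads in PBS-WT and 27014 in PBS-HPS1, and 19335 in BLEO-WT and 54082 in BLEO-HPS1, a CPM of 573, 273, 247 and 856. The order was BLEO-HPS1, PBS-WT, PBS-HPS1 and BLEO-WT, with the highest library 3.47 times the lowest. Bleomycin against PBS gave a log2 ratio of -1.22 in WT (-1.24 to -1.19) and 1.65 in Hps1-/- mice (1.63 to 1.67), and BLEO-HPS1 against BLEO-WT gave 1.80 (1.77 to 1.82).

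*Ighd*, the IgD heavy chain that mature resting B cells carry beside IgM, had the flattest profile of the 10, its highest library being 2.07 times its lowest. It had 1017, 1448, 1464 and 1707 reads in PBS-WT and PBS-HPS1, then BLEO-WT and BLEO-HPS1, or 13.0, 14.6, 18.7 and 27.0 CPM. Its order differed from that of *Ighm*, since BLEO-WT was not the lowest library but the second, or the third with total counts alone in place of TMM factors. Between the bleomycin libraries the log2 ratio, BLEO-HPS1 to BLEO-WT, was 0.53 (0.43 to 0.63), and no comparison of *Ighd* reached 2-fold, though BLEO-HPS1 against PBS-HPS1, at 0.88, became 1.08 after a loess correction for transcript GC and length.

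*Igha*, the heavy chain of the mucosal antibody IgA, was split by genotype. The CPM was 159 in PBS-HPS1 and 232 in BLEO-HPS1 against 59.1 in PBS-WT and 27.0 in BLEO-WT, from 15744, 14640, 4605 and 2120 reads. Both Hps1-/- libraries were above both WT libraries, which was not the case for *Ighm*, *Igkc* or *Jchain*. *Ighg1* and *Ighg2c*, with far fewer reads, were split in the same way. Hps1-/- against WT gave a log2 ratio of 1.43 with PBS (1.38 to 1.48) and 3.10 with bleomycin (3.03 to 3.17).

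The 4 IgG genes were between 0.0787 and 9.36 CPM per kb, under *Igha* at 10.1 to 86.9 CPM per kb in all libraries. *Ighg3*, which encodes a subclass made largely in responses to polysaccharides, had 1833 reads in PBS-WT and 1102 in PBS-HPS1, and 42 in BLEO-WT and 119 in BLEO-HPS1. In CPM these were 23.5, 11.1, 0.536 and 1.88, so both bleomycin libraries lay under both PBS libraries and the highest library was 43.9 times the lowest. *Ighg3* had a negative log2 ratio of bleomycin to PBS in both genotypes, -5.39 in WT (-5.93 to -5.02) and -2.55 in Hps1-/- mice (-2.85 to -2.29). With TMM factors it was alone in this, whereas with total counts alone *Ighg2b*, *Ighg2c*, *Igha* and *Jchain* were also negative in both, as was *Ighg2c* after the loess correction.

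*Ighg2b* had 1561, 496, 52 and 436 reads in PBS-WT and PBS-HPS1, then BLEO-WT and BLEO-HPS1, a CPM of 20.0, 5.01, 0.663 and 6.90. The highest library, PBS-WT, was 30.2 times the lowest, BLEO-WT. *Ighg2c*, the subclass that C57BL/6 mice carry in place of IgG2a, had 143, 350, 13 and 313 reads, a CPM of 1.83, 3.53, 0.166 and 4.95, and like *Igha* was higher in both Hps1-/- libraries than in both WT libraries. Between the bleomycin libraries the log2 ratio, BLEO-HPS1 to BLEO-WT, was 3.33 for *Ighg2b* (2.96 to 3.82) and 4.71 for *Ighg2c* (4.11 to 5.83), and the latter rests on the 13 reads of BLEO-WT.

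*Ighg1*, the IgG subclass associated with type 2 responses in mice, had only 17, 71, 16 and 143 reads in PBS-WT and PBS-HPS1, then BLEO-WT and BLEO-HPS1. The CPM was 0.218, 0.717, 0.204 and 2.26, and the gene was compared at all only because BLEO-HPS1 exceeded 1 CPM. PBS-WT and BLEO-WT did not differ beyond counting error, with a log2 ratio of -0.09 (-1.18 to 0.98). *Ighe*, which encodes the heavy chain of IgE and is not among the 10, had 37 reads in PBS-WT and 6 in PBS-HPS1, and 0 in BLEO-WT and 1 in BLEO-HPS1 and stayed under 1 CPM throughout, the 0 in BLEO-WT allowing a level of up to 0.0383 CPM.

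Of the light chain genes, kappa was the higher in each library. *Igkc*, the constant region of the kappa chains, had 18610, 14951, 5897 and 26033 reads in PBS-WT and PBS-HPS1, then BLEO-WT and BLEO-HPS1, or 239, 151, 75.2 and 412 CPM, in the same order of libraries as *Ighm*. *Iglc1*, a lambda constant gene, had 688, 356, 398 and 1760 reads, or 8.83, 3.60, 5.08 and 27.9 CPM, with PBS-HPS1 lowest, or BLEO-WT with total counts alone. In Hps1-/- mice the bleomycin to PBS log2 ratio was 1.45 for *Igkc* (1.42 to 1.48) and 2.95 for *Iglc1* (2.79 to 3.12). That of *Igkc* was under 2-fold, at 0.81, with total counts alone and at 0.73 after the loess correction, while *Iglc1* stayed past it at 2.30 and 2.08. Per kilobase of exon, the level of *Igkc* exceeded that of *Ighm* in each library, with 449 against 304 CPM per kb in PBS-WT, 284 against 145 in PBS-HPS1, 141 against 131 in BLEO-WT and 775 against 454 in BLEO-HPS1.

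*Jchain* had 6106 reads in PBS-WT and 3423 in PBS-HPS1, and 1028 in BLEO-WT and 3040 in BLEO-HPS1. With CPM values of 78.3, 34.6, 13.1 and 48.1 it was highest in PBS-WT, as were *Ighg2b* and *Ighg3*, whereas the other 7 members were highest in BLEO-HPS1, though *Igha* and *Ighg2c* were highest in PBS-HPS1 with total counts alone. The bleomycin to PBS log2 ratio was -2.58 in WT (-2.68 to -2.48) and 0.48 in Hps1-/- mice (0.41 to 0.55).

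The makeup of the antibody reads within a library does not depend on how libraries are scaled to each other. *Ighm* made up 83.0% of the reads of the 7 heavy chain genes in PBS-WT (82.6 to 83.3) and 58.4% in PBS-HPS1 (58.0 to 58.9), and 83.9% in BLEO-WT (83.4 to 84.4) and 75.7% in BLEO-HPS1 (75.4 to 76.0). The share of *Igha* was 8.55%, 34.1%, 9.20% and 20.5% in the same order. IgM thus had a lower and IgA a higher share in both Hps1-/- libraries than in both WT libraries, and the WT libraries were close to each other. For every 100 *Ighm* reads there were 10.3 *Igha* reads in PBS-WT (9.99 to 10.6) and 58.3 in PBS-HPS1 (57.1 to 59.4), and 11.0 in BLEO-WT (10.5 to 11.5) and 27.1 in BLEO-HPS1 (26.6 to 27.6).

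The share of IgG differed by treatment more than by genotype. The 4 IgG genes took 6.60% of heavy chain reads in PBS-WT and 4.37% in PBS-HPS1, against 0.534% in BLEO-WT and 1.41% in BLEO-HPS1. Both PBS libraries lay above both bleomycin libraries. Among the IgG reads, *Ighg3* held 51.6% in PBS-WT and 54.6% in PBS-HPS1, and 34.1% in BLEO-WT (25.8 to 43.2, of 123 reads) and 11.8% in BLEO-HPS1. *Ighg2c* held 4.02%, 17.3%, 10.6% (5.75 to 17.4) and 31.0% in the same order, and *Ighg1* 0.478%, 3.52%, 13.0% (7.62 to 20.3) and 14.1%. Per kilobase of exon, *Ighg2c* rather than *Ighg2b* held the largest share of IgG in BLEO-HPS1, with 47.1% against 32.5%.

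**Figure D2:**
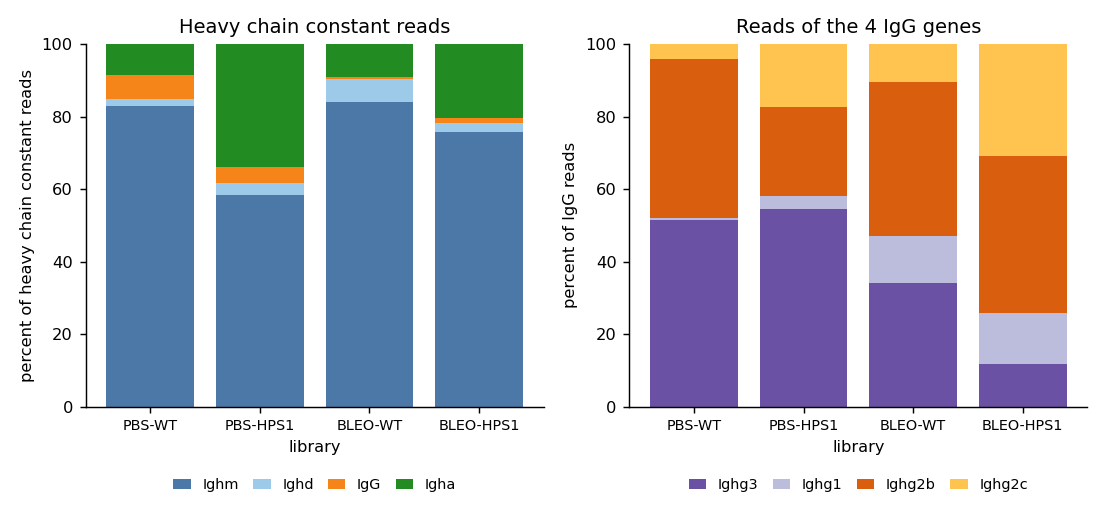
Left, percent of the reads of the 7 heavy chain constant genes in each library that belong to Ighm, Ighd, the 4 IgG genes together and Igha. Right, percent of the IgG reads in each library that belong to each IgG gene. Igha takes 34.1% of heavy chain reads in PBS-HPS1 and 20.5% in BLEO-HPS1 but under 10% in both WT libraries, and Ighg3 takes over 50% of IgG reads in both PBS libraries.

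*Ighd* and *Jchain* relate in different ways to the polymeric classes. *Ighd* reads per 100 *Ighm* reads were 2.28 in PBS-WT (2.14 to 2.42) and 5.36 in PBS-HPS1 (5.08 to 5.65), and 7.57 in BLEO-WT (7.18 to 7.99) and 3.16 in BLEO-HPS1 (3.01 to 3.31). This ratio was thus highest in the library with the fewest antibody reads. *Jchain* reads per 100 reads of *Ighm* and *Igha*, the chains it joins, were 12.4 in PBS-WT (12.1 to 12.7) and 8.01 in PBS-HPS1 (7.73 to 8.29), and 4.79 in BLEO-WT (4.50 to 5.10) and 4.42 in BLEO-HPS1 (4.26 to 4.59). The 2 bleomycin libraries lay close together and under both PBS libraries, although their levels of *Ighm* and *Igha* were the most different of the 4. These ratios of reads were not corrected for GC content, which was 38.2% for *Jchain* against 51.8% for *Ighm* and *Igha*. After the loess correction, the bleomycin to PBS log2 ratio in Hps1-/- mice was 1.87 for *Jchain*, 1.08 for *Ighm* and 0.16 for *Igha*. In WT mice these were -1.79, -1.38 and -1.23. The table counts reads per gene and does not separate the secreted from the membrane form of a heavy chain.

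**Figure D3:**
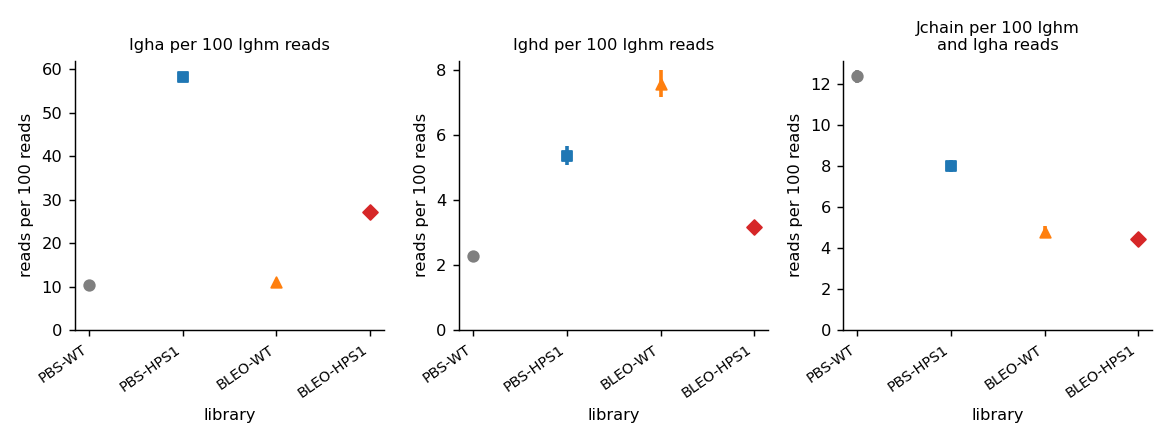
Reads of Igha and of Ighd per 100 Ighm reads, and reads of Jchain per 100 reads of Ighm and Igha, in each library, with 95% counting intervals as vertical lines (most are shorter than the symbols). Igha per Ighm separates the genotypes, Jchain per Ighm and Igha separates PBS from bleomycin, and Ighd per Ighm peaks in BLEO-WT at 7.57. The ratios were not corrected for GC content, which is lower for Jchain than for Ighm and Igha. With the loess correction the bleomycin to PBS log2 ratio in Hps1-/- mice was larger for Jchain (1.87) than for Ighm (1.08) or Igha (0.16).

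Kappa reads outnumbered lambda reads in all libraries. *Igkc* held 96.4% of the reads of *Igkc* and *Iglc1* in PBS-WT (96.2 to 96.7) and 97.7% in PBS-HPS1 (97.4 to 97.9), and 93.7% in BLEO-WT (93.0 to 94.3) and 93.7% in BLEO-HPS1 (93.4 to 94.0). With the other lambda genes *Iglc2*, *Iglc3* and *Iglc4* added, the kappa share was 92.5%, 89.7%, 80.6% and 86.6%, and BLEO-WT then stood below BLEO-HPS1. *Iglc1* was 45.9% of the lambda constant reads in PBS-WT and 20.7% in PBS-HPS1, and 28.0% in BLEO-WT and 43.7% in BLEO-HPS1. *Iglc2* had 558, 1117, 482 and 1504 reads and *Iglc3* 252, 244, 540 and 757, and these 2 genes are 96.2% identical over their coding sequence, so reads between them may be split uncertainly, while *Iglc1* is 73.4% and 74.2% identical to them.

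Light chain reads were compared with heavy chain reads in the same way. There were 35.8 reads of *Igkc* and *Iglc1* per 100 heavy chain constant reads in PBS-WT and 33.1 in PBS-HPS1, and 27.3 in BLEO-WT and 38.9 in BLEO-HPS1. Per kilobase of exon these were 133, 132, 101 and 148 per 100. Variable gene reads were counted at 15.4, 18.4, 15.2 and 20.4 *Ighv* reads per 100 heavy chain constant reads and 69.6, 78.2, 75.4 and 75.9 *Igkv* reads per 100 *Igkc* reads.

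In the comparison of genotypes given PBS, PBS-HPS1 against PBS-WT, 2 of the 10 members were at least 2-fold higher (*Ighg1* and *Igha*) and 5 at least 2-fold lower (*Ighm*, *Ighg2b*, *Ighg3*, *Iglc1* and *Jchain*). Among all genes compared, 2.16% were higher and 3.11% lower by this threshold. The median log2 ratio of the members was -0.87, that of all genes -0.19. The values ran from -1.99 for *Ighg2b* (-2.15 to -1.85) to 1.61 for *Ighg1* (0.94 to 2.57). With total counts alone, 2 members were at least 2-fold lower, and 4.38% of all genes were higher and 2.02% lower.

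For bleomycin in WT mice, BLEO-WT against PBS-WT, 0 members were higher by at least 2-fold and 7 were lower, where 5.28% of all genes were higher and 8.22% lower (3.17% and 13.4% with total counts alone). The members past 2-fold were *Ighm*, *Ighg2b*, *Ighg2c*, *Ighg3*, *Igha*, *Igkc* and *Jchain*, and their log2 ratios ran from -5.39 for *Ighg3* to -1.13 for *Igha* (-1.20 to -1.05). *Iglc1*, at -0.80 (-0.98 to -0.62), and *Ighg1*, at -0.09, had values under 2-fold, and *Ighd* was the only positive value, at 0.52 (0.40 to 0.63). The median was -1.44 for the members and 0.09 for all genes.

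*Ighg1* passed the filter only through BLEO-HPS1, so its call as higher there is no support. In Hps1-/- mice, BLEO-HPS1 against PBS-HPS1, 4 members were higher by at least 2-fold (*Ighm*, *Ighg1*, *Igkc* and *Iglc1*) and 1, *Ighg3*, at least 2-fold lower. This was the comparison with the most calls among all genes, 26.2% higher and 19.6% lower, so a count of 4 of 10 is read against that background. The median was 0.71 for the members and 0.25 for all genes. *Ighg2b*, *Ighg2c*, *Igha* and *Jchain* had values between 0.46 and 0.54, all 4 of which were negative with total counts alone, between -0.18 and -0.10. That scaling moved the median of all genes from 0.25 to -0.43, left 2 members at least 2-fold higher, *Ighm* (1.01) and *Iglc1* (2.30), and gave 9.06% of all genes higher and 34.5% lower.

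Between the bleomycin libraries, BLEO-HPS1 against BLEO-WT, 9 of the 10 members were at least 2-fold higher and 0 lower, where 6.72% of all genes were higher and 10.3% lower (4.92% and 14.8% with total counts alone). *Ighd*, at 0.53, was the member under 2-fold. The median was 2.45 for the members and -0.04 for all genes. The 4 largest log2 ratios were those of switched isotypes, 4.71 for *Ighg2c*, 3.33 for *Ighg2b*, 3.32 for *Ighg1* and 3.10 for *Igha*, against 1.80 for *Ighm*, but the remaining switched isotype, *Ighg3*, was at 1.77 (1.30 to 2.36). In BLEO-WT the first 3 of these rest on 13, 52 and 16 reads. *Ighg1* passed the filter only through BLEO-HPS1, where it is high, so its place among the 9 is no support for them. *Igkc* and *Jchain* were among the genes the study displayed from these same libraries, so their direction here, 2.45 and 1.87, is not independent of that choice. All 10 members were chosen with earlier results of these data known, so the directions of the others are not independent support either.

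The 4 comparisons share libraries, so their values are not independent of each other. For all 10 members the bleomycin to PBS log2 ratio was larger in Hps1-/- mice than in WT mice, by between 0.37 (*Ighd*, 0.21 to 0.52) and 5.32 (*Ighg2b*, 4.89 to 5.76), with a median of 2.96, although the difference for *Ighd* was -0.01 with total counts alone. Over all genes, 55.5% had a difference above 0. For 9 of the 10 members the difference was at least 1, as it was for 16.3% of all genes, whose median was 0.15. *Ighg1*, among these 9, was compared only because of its level in BLEO-HPS1. In 7 members, *Ighm*, *Ighg2b*, *Ighg2c*, *Igha*, *Igkc*, *Iglc1* and *Jchain*, the ratio was negative in WT and positive in Hps1-/- mice with both counting intervals clear of 0. With total counts alone the opposite sign held for *Ighm*, *Igkc* and *Iglc1* among these 7, and once the ratios were adjusted by loess for transcript GC and length it held for all of them but *Ighg2c*, which was at -0.36 in Hps1-/- mice. The share of all genes with opposite signs was not counted, so the 7 members have no background to be read against.

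**Figure D4:**
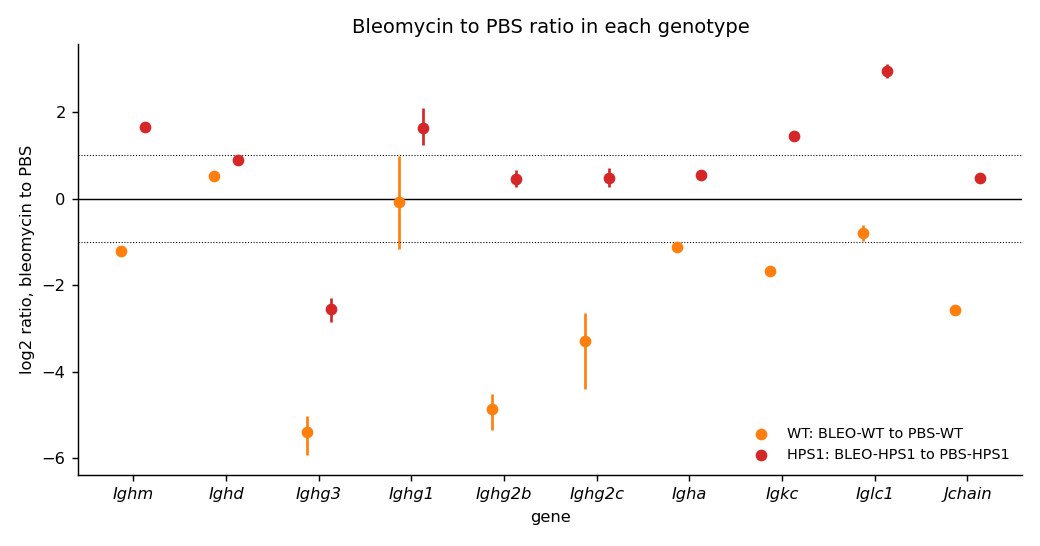
Log2 ratio of bleomycin to PBS for each gene in WT mice and in Hps1-/- mice, with 95% counting intervals as vertical lines and dotted lines at the 2-fold thresholds. The Hps1-/- point is above the WT point for each gene, Ighd has the smallest gap (0.37, or -0.01 with total counts alone) and Ighg2b the largest (5.32), and Ighg3 is negative in both genotypes (with total counts alone, so are Ighg2b, Ighg2c, Igha and Jchain).

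GC content moved with these comparisons. Over the 14813 genes with a transcript sequence, log2 ratios correlated with GC content with a Spearman's rho of 0.432 for bleomycin in WT mice and 0.562 in Hps1-/- mice, of 0.537 between the bleomycin libraries and of -0.0740 between the PBS libraries. Genes are not independent replicates. The number of cells also differed between all libraries, and whether it has a part in the values was not tested. The longest transcripts of the members have GC contents between 46.5% (*Ighd*) and 53.8% (*Ighg2c*), apart from *Jchain* at 38.2%. After the loess correction between the bleomycin libraries the counts of members higher and lower by 2-fold stayed at 9 and 0, and the largest change was that of *Jchain* in Hps1-/- mice, from 0.48 to 1.87.

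Genes that mark the cells known to make antibody were counted as well. All 16 genes of a B cell list were measured, none was at 0 in any library, and the summed CPM was 246 in PBS-WT and 254 in PBS-HPS1, and 285 in BLEO-WT and 438 in BLEO-HPS1. *Ms4a1*, which encodes CD20, had 11.4, 11.4, 9.65 and 18.1 CPM in the same order. *Cd79a* and *Cd79b*, the signalling partners that carry membrane antibody on B cells, had 23.7, 30.2, 35.5 and 124 CPM and 18.0, 17.5, 20.5 and 81.7 CPM. *Cd79a* and *Cd79b* were listed apart from the 16 genes, and both were highest in BLEO-HPS1. Of the 16, 8 were highest in BLEO-HPS1, *Ms4a1* among them, while 5 were highest in PBS-HPS1, 2 in PBS-WT and 1 in BLEO-WT. *Pax5*, the transcription factor that keeps B cell identity, was one of the 5, with 18.1, 24.6, 13.9 and 14.2 CPM, and had a log2 ratio of -0.79 for BLEO-HPS1 against PBS-HPS1 (-0.91 to -0.68) and of 0.03 between the bleomycin libraries (-0.10 to 0.16).

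Between the bleomycin libraries, 5 of the 16 B cell genes were at least 2-fold higher and 0 lower, with a median of 0.68, where 6.72% of all genes were higher and 10.3% lower. For BLEO-WT against PBS-WT, 7 of the 10 members but 0 B cell genes were at least 2-fold lower, as were 8.22% of all genes. At least 2-fold higher were 2 B cell genes, *Cd72* (1.14) and *Blnk* (1.91), and 5.28% of all genes. Both *Cd72* and *Blnk* are also expressed outside B cells. The median of the B cell genes was -0.25. BLEO-WT was the lowest library for 9 of the 16. The part of B cells in the members' values was not tested.

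Plasma cell genes showed less difference than the members. Of 14 listed genes, 13 passed the filter on low values and none was at 0 in any library. The summed CPM was 656, 637, 762 and 870 in PBS-WT and PBS-HPS1, then BLEO-WT and BLEO-HPS1, and the median log2 ratio was 0.14 for BLEO-WT against PBS-WT, with 0 genes past 2-fold in either direction, and 0.35 for BLEO-HPS1 against BLEO-WT, with 2 genes higher and 1 lower. *Mzb1*, a chaperone for antibody assembly in the endoplasmic reticulum, had 3.69, 2.77, 3.18 and 17.4 CPM, and *Derl3*, which acts in the disposal of misfolded proteins, 1.40, 1.13, 0.778 and 2.01. *Prdm1*, the transcription factor of plasma cell differentiation, was lowest in BLEO-HPS1, with 36.2, 45.2, 36.4 and 19.4 CPM, and *Tnfrsf17*, the survival receptor BCMA of plasma cells, stayed under 1 CPM, between 0.121 and 0.285. *Xbp1*, *Prdm1* and *Irf4* are also expressed by other lymphocytes.

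**Figure D5:**
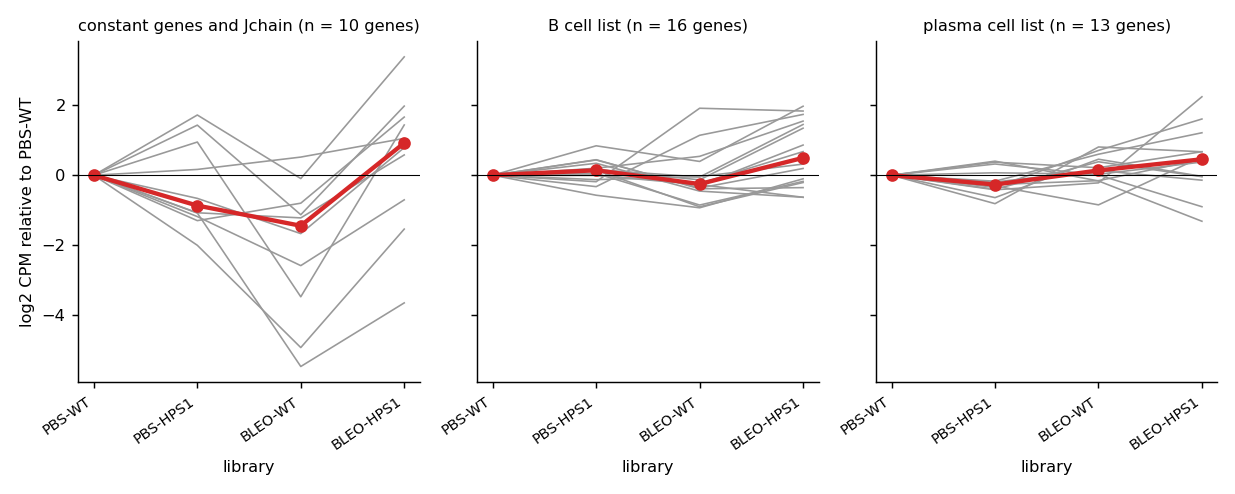
Log2 CPM relative to PBS-WT in the 4 libraries for the 10 constant and joining chain genes, the 16 B cell genes and the 13 plasma cell genes that passed the filter, 1 grey line per gene, with the median of each list in red. The constant genes spread over a wider range than either list, and their median in BLEO-WT is the lowest of the 3.

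Set against *Cd79a* in the same library, *Ighm* and *Igkc* reads were most abundant in PBS-WT, ratios chosen after their values were seen. There were 24.2 *Ighm* reads per *Cd79a* read in PBS-WT (23.1 to 25.4) and 9.03 in PBS-HPS1 (8.70 to 9.38), and 6.95 in BLEO-WT (6.67 to 7.23) and 6.92 in BLEO-HPS1 (6.76 to 7.08), so the 2 bleomycin libraries did not differ beyond counting error on this measure. For *Igkc* the ratio was 10.1, 4.999, 2.12 and 3.33 in the same order. The ratio of *Ighd* to *Cd79a* reads was 0.551, 0.484, 0.526 and 0.218, lowest in BLEO-HPS1. *Jchain* reads per *Mzb1* read were 21.2 in PBS-WT (18.8 to 23.9) and 12.5 in PBS-HPS1 (11.0 to 14.2), and 4.13 in BLEO-WT (3.59 to 4.76) and 2.76 in BLEO-HPS1 (2.58 to 2.96). *Igha* reads per *Mzb1* read were instead highest in PBS-HPS1, at 57.5 (50.99 to 65.0), against 15.99 in PBS-WT (14.2 to 18.1), 8.51 in BLEO-WT (7.46 to 9.75) and 13.3 in BLEO-HPS1 (12.5 to 14.1).

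Genes of class switching and hypermutation were compared in the same way. Of the 6 genes of this list that passed the filter, which act in DNA repair in many cell types, 0 differed by 2-fold or more between the bleomycin libraries or between the PBS libraries, and 2 were at least 2-fold higher in BLEO-HPS1 than in PBS-HPS1, a comparison in which 26.2% of all genes were. Of the genes of the surrogate light chain of B cell precursors, *Igll1* was near the floor, between 0.0475 and 0.0808 CPM. *Vpreb1* was above it but under 1 CPM, between 0.0765 and 0.252. *Vpreb3*, listed with them, had 0.680, 0.707, 0.459 and 1.57 CPM in PBS-WT and PBS-HPS1, then BLEO-WT and BLEO-HPS1.

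Of 10 measured genes for antibody receptors and transport, 1 was at least 2-fold higher and 1 lower between the bleomycin libraries, near the 6.72% and 10.3% of all genes. *Fcmr*, the receptor for IgM, had 8.36, 8.47, 10.6 and 29.5 CPM in PBS-WT and PBS-HPS1, then BLEO-WT and BLEO-HPS1, a log2 ratio of 1.48 between the bleomycin libraries. *Pigr*, the epithelial receptor that transports polymeric IgA and IgM, stayed under 1 CPM, between 0.231 and 0.616. The high affinity IgE receptor genes *Fcer1a*, with 4.32, 2.34, 0.587 and 0.412 CPM, and *Ms4a2*, with 10.2, 6.37, 0.408 and 0.190, were lower in both bleomycin libraries than in both PBS libraries. The IgG receptor genes *Fcgr2b* and *Fcgr3*, which myeloid cells express, went the other way, at 245, 204, 879 and 633 CPM and 204, 165, 497 and 525 CPM.

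Reads of genes that mark T cells and myeloid cells were present although the lineage antibodies were directed against such cells too. The 8 T cell genes had a summed CPM of 719, 564, 613 and 1010 in PBS-WT and PBS-HPS1, then BLEO-WT and BLEO-HPS1, with none at 0 and 7 of 8 highest in BLEO-HPS1, and the 9 myeloid genes had 12076, 7596, 18152 and 16574. The T cell genes had a log2 ratio of bleomycin to PBS above 0 for 1 of 8 in WT (median -0.18) and for 7 of 8 in Hps1-/- mice (median 1.03), with a median difference of 1.16, and *Cd3d*, a chain of the T cell receptor complex, was at -0.10 and 1.58. Most of the myeloid sum was *Lyz2*, which encodes lysozyme, at 9428, 6083, 13145 and 12344 CPM. The part of these cell types in the members' values was not tested.

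Outside the immunoglobulin genes, the genes nearest to the median profile of the members were sought among 10876 genes with a mean CPM of at least 5, by the root mean square difference of centred log2 CPM over the 4 libraries. The 5 nearest were *Cd160* (0.196), a receptor of cytotoxic lymphocytes, the adhesion gene *Cadm3* (0.240), the granzyme gene *Gzma* (0.312), the chemokine gene *Ccl5* (0.313) and *Tbx21* (0.320), which encodes the transcription factor T-bet. The median over all genes compared was 0.990, and the members themselves lay between 0.164 and 1.87 from their own median. *Gzma* had 58.2, 87.3, 23.5 and 141 CPM in PBS-WT and PBS-HPS1, then BLEO-WT and BLEO-HPS1, and like *Igha* it was higher in PBS-HPS1 than in PBS-WT. Among the B cell genes, the nearest was *Fcer2a*, the low affinity IgE receptor CD23, at 0.553, and *Cd79a* was at 0.870. With 4 libraries, likeness of profile is a description of these libraries.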

How the data were processed

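RNA-Seq of lung ILC2s was used, with the 4 groups taken from the sample labels. The authors deposited raw counts of reads per Ensembl gene, whole numbers without normalization, of which 174 genes have no symbol. The aligner, counter, build, annotation and strand setting are not given in the sources used here. The SMARTER kit used for the libraries amplifies cDNA. Positions, sequences, exon lengths and GC contents were read from GENCODE M21 (GRCm38) by gene identifier.

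Counts were scaled with TMM factors of edgeR 4.0.16 (R 4.3.3), which were 1.08, 1.27, 0.895 and 0.816 for PBS-WT and PBS-HPS1 and then for BLEO-WT and BLEO-HPS1. As each group has 1 library, no quasi-likelihood test could be made, and no p-value is given. A gene was called at a log2 ratio of 1 or more, or -1 or less. Since PCR copies are not independent molecules, intervals (scipy 1.17.1) and the 3-read floor cover counting error only. The steps were tested on simulated data.

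Named genes were all 10 members, the other constant genes, members of the marker lists, and the 5 genes outside the immunoglobulins nearest in profile. Members and lists were chosen with earlier results of these data known. The alternatives were DESeq2 1.42.0 size factors, total counts, TMM without immunoglobulin genes, a prior count of 0.5 or of 10, all genes unfiltered, a minimum of 10 reads in each of the 4 libraries, a log2 threshold of 2, a loess adjustment of the ratios for GC content and transcript length (span 0.3), shares per kilobase, and wider denominators for the shares. Some genes of the marker lists are not reported here by name.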

Additional observations from a re-analysis of the deposited data

Results flagged for a closer look

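In 7 of the 10 genes the bleomycin to PBS log2 ratio was negative in WT and positive in Hps1-/- mice, with both counting intervals clear of 0. With 1 library per group the difference was not tested, and the share of all genes with opposite signs was not counted. The ratio in Hps1-/- mice minus that in WT mice was 2.87 for *Ighm*, 5.32 for *Ighg2b*, 3.77 for *Ighg2c*, 1.67 for *Igha*, 3.11 for *Igkc*, 3.74 for *Iglc1* and 3.05 for *Jchain*. The opposite signs were kept under all 8 alternatives for *Ighm*, *Igkc* and *Iglc1*, under 7 for *Ighg2b*, *Igha* and *Jchain*, and under 6 for *Ighg2c*. Among the 8, the settings that change only the filter leave each ratio as it was, so they could not alter a sign or a difference. The difference itself stayed positive for these 7 genes under all 8, the smallest value being 1.29 for *Igha*, while that of *Ighd*, which has the same sign in both genotypes, ran from -0.01 to 0.46.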

How the results depend on the processing

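No paired analysis was possible because each group has 1 library and the labels carry no replicate numbers. With total counts alone, 2 members were at least 2-fold lower for PBS-HPS1 against PBS-WT (2.02% of all genes). For BLEO-HPS1 against PBS-HPS1, 2 were at least 2-fold higher (9.06% of all genes). The median difference of bleomycin ratios between genotypes was then 2.58. After the loess correction that difference was 2.47. At a log2 threshold of 2, 0 members were higher and 0 lower for PBS-HPS1 against PBS-WT, 4 were lower for BLEO-WT against PBS-WT and 1 was higher for BLEO-HPS1 against PBS-HPS1. Per kilobase of exon, the IgM share was 86.5% in PBS-WT and 65.4% in PBS-HPS1, and 86.4% in BLEO-WT and 80.6% in BLEO-HPS1, and the kappa share 95.8%, 97.3%, 92.7% and 92.7%. With every lambda constant gene, the kappa share was 92.5%, 89.7%, 80.6% and 86.6%. The cause of these shifts was not tested. The members' counts for BLEO-HPS1 against BLEO-WT stayed within 1.5 times under all 9 alternatives. Of the 28 member ratios of at least 2-fold, none changed sign under the 8 settings that keep the threshold, all 28 stayed past 2-fold under 6 of them, 26 after the loess correction and 23 with total counts alone. The settings with no filter and with at least 10 reads in every library change only which genes are compared. They leave each ratio as it was, so their agreement was fixed in advance. Over all genes, the percentages higher and lower for PBS-HPS1 against PBS-WT were 2.16% and 3.11% in the main analysis and 13.7% and 3.94% with no filter; after the loess correction they were 5.93% and 5.22% for BLEO-WT against PBS-WT (5.28% and 8.22% before), 19.3% and 8.0% for BLEO-HPS1 against PBS-HPS1 (26.2% and 19.6%) and 5.50% and 4.44% for BLEO-HPS1 against BLEO-WT (6.72% and 10.3%).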
